A study of Mus musculus with 7 samples.

Results

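RNA sequencing compared induced neural stem cells (iNSCs) made with a polycistronic BKSM vector (pBKSM) with 2 iNSC clones made with monocistronic BKSM vectors (mcBKSM clones 1 and 3). A polycistronic vector carries its factors on 1 transcript and a monocistronic vector carries 1 factor, and p and mc are taken to stand for them. B is taken as Brn4 (gene Pou3f4), K as Klf4, S as Sox2 and M as Myc. Genes were chosen by setting pBKSM against the mean of both clones on log2(FPKM + 1), where FPKM counts fragments per kilobase and is scaled to the library. Both clones had to lie on the same side of pBKSM, and the higher of the 2 sides had to reach 5 FPKM. Of 24354 genes in the table, 8299 met this rule. Of these, 4259 were higher and 4040 lower in pBKSM.

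The pBKSM line and both clones came from embryonic day 13.5 fibroblasts of Oct4-CreER x Rosa26-loxSTOPlox-EYFP mice (strain C57BL/6-Pou5f1 x 129X1/SvJ), with the head, spinal cord and internal organs removed before culture. The cells were infected with lentivirus or retrovirus and grown in neural stem cell medium; the labels do not say which virus carried which vector. In these mice the Oct4 gene locus drives an inducible Cre, and Cre opens a yellow fluorescent reporter at Rosa26; whether Cre was induced is not given in the sources used here. The pOKSM iNSC line, in which O is read as Oct4 (gene Pou5f1), and a fibroblast library (MEF) had the same strain and alleles. MEF was listed at 0 FPKM for Ddx3y, Kdm5d and Uty, which are Y-linked and present in pBKSM, the clones and pOKSM. Whether MEF is the culture that gave those lines is not known here. The DTA iNSC line came from Oct4-CreER x Rosa26-loxSTOPlox-DTA fibroblasts of unstated strain, where Cre opens a diphtheria toxin gene, and its vector is not labelled. Cortical neural stem cells (cNSC) came from day 13.5 brains of OG2/ROSA26 mice; the strain label names heterozygous female mice, but the library held Y-linked transcripts (Ddx3y at 16.4 FPKM), which goes against that label if it gives the sex of the embryos. Each of the 7 libraries was 1 pool of RNA from 2 to 3 biological replicates, so the series has 1 pBKSM library and each clone is 1 library. A clone descends from 1 event of conversion, and whether the pBKSM line is a clone is not stated. The files hold no counts; low values gave estimates of 10700000 fragments in pBKSM, 13600000 in clone 1 and 12600000 in clone 3. At these depths 3 fragments on a 2 kb transcript are worth 0.14 FPKM in pBKSM, 0.110 in clone 1 and 0.119 in clone 3.

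Sox2, Klf4 and Myc with a POU factor are used to convert fibroblasts into self-renewing neural cells. Brn4 belongs to the POU factors that bind DNA together with SOX proteins in neural progenitors, and Oct4 is the POU factor of the early embryo. Neural stem cells in culture resemble radial glia: they carry Sox, Notch and glial genes, divide in response to growth factors, and can give rise to neurons, astrocytes and oligodendrocytes. RNA read from bulk cells does not separate fewer cells of a kind from less RNA per cell.

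pBKSM and the clones were far apart at a limited part of the transcriptome. Among the 8299 genes, 980 were at least 2-fold higher and 690 at least 2-fold lower in pBKSM on the log2(FPKM + 1) scale, and 319 and 285 were at least 4-fold higher and lower. In a limma-trend fit of all 7 libraries, 263 of the 8299 were called higher in pBKSM (3.74% of all 13042 genes tested were called higher) and 185 were called lower (2.08% of all genes tested). The share of the 8299 that was called in either direction, 5.40%, lay near the 5.82% of all genes tested, so the count says nothing particular of the chosen genes. Among the called genes of the 8299, the smallest difference was 1.06 for the higher genes and -1.14 for the lower ones. Their median differences were 2.55 and -3.01. A further 311 called genes did not meet the rule, and some of these had smaller differences. Some genes were nearly on or off: 96 genes had at least 5 FPKM in pBKSM and under 0.5 FPKM in both clones, of which 94 were called. Another 96 had the reverse, of which 62 were called.

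The fit had 1 residual degree of freedom, from the 2 clones, and pBKSM was assumed to vary as they do. The p-values therefore measure the distance between 1 line and the spread of 2 clones, and the smallest adjusted p was 0.0367. Without the trend of spread on level, limma called 0 genes (smallest adjusted p 0.0595, with 4950 genes at an unadjusted p under 0.05, against 4880 with the trend). Every call below is lost in that setting. Of the 157 called genes chosen for naming, 87 also lost the call with no filter on low values and 48 with a pseudocount of 0.1. When each library was centred within each chromosome, an alternative added after the data were seen, 1285 of the chosen genes were called higher and 1132 lower. Genes near 0 in both clones have little clone spread on the log2(FPKM + 1) scale, so smaller rises could be called there. Twist2, at 0 in both clones, was called at a log2 difference of 0.81 (SE 0.05). Ccnd1, at 118 and 95.9 FPKM in the clones, was not called at 1.98 (SE 0.19). At the threshold of the rule, Bend6 (5.002 FPKM in the higher side) was just inside and Tbc1d24 (4.999 FPKM) just outside.

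**Figure D1:**
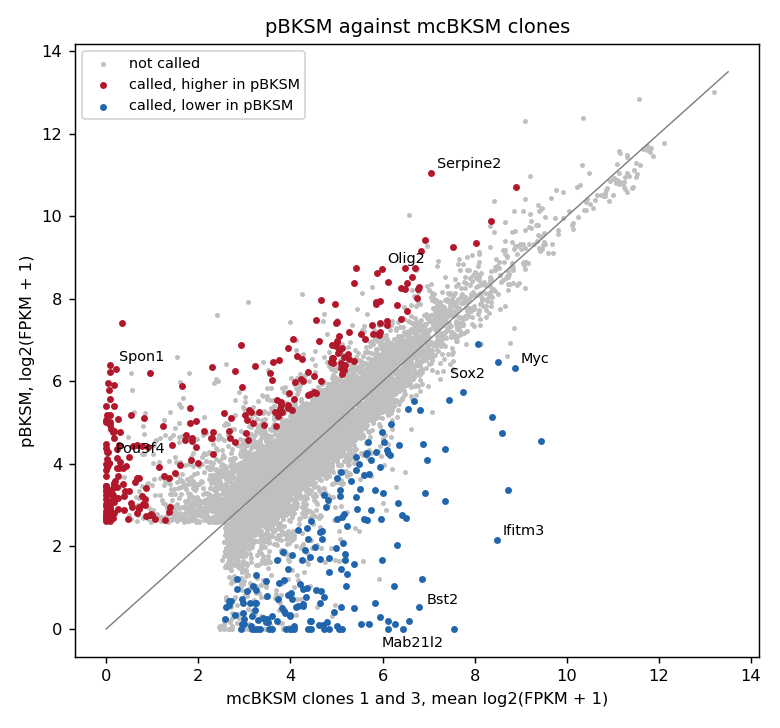
Each point is one of the 8299 chosen genes, with its level in pBKSM on the y axis and the mean of mcBKSM clones 1 and 3 on the x axis, both as log2(FPKM + 1). The 263 red genes were called higher and the 185 blue genes lower in pBKSM; many of both lie along an axis, where one side is near 0.

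Transcripts of the factor genes themselves differed. Pou3f4 had 19.99 FPKM in pBKSM, against 0 in clone 1 and 0 in clone 3, and was called higher. The factor that gives B its letter was thus listed at 0 in both libraries labelled mcBKSM. cNSC had 27.2 FPKM, the DTA line 24.1, pOKSM 2.26 and MEF 0. Sox2, the central SOX factor of neural stem cells, had 87.6 FPKM in pBKSM, against 342 and 390 in the clones, and was called lower (log2 difference -2.05, SE 0.13, adjusted p = 0.0471), a call lost with no filter, a pseudocount of 0.1 and quantile normalization. Myc, a driver of growth, had 78.9 FPKM in pBKSM, against 450 and 485 in the clones, and was called lower (log2 difference -2.55, SE 0.10, adjusted p = 0.0373). Sox2 in pBKSM was thus near cNSC (107 FPKM). Myc in pBKSM stood above MEF (47.8 FPKM), cNSC (42.5) and the DTA line (50.1), and the clones stood further above them. At both genes the clones stood above cNSC and MEF, as did pOKSM with 277 FPKM of Sox2 and 339 of Myc. Klf4 had 11.7 FPKM in pBKSM, between 16.6 in clone 1 and 5.91 in clone 3, and was not called. Pou5f1 was listed at 0 in pBKSM, with 0.398 and 0.187 FPKM in the clones, and was not tested. Reads from a vector's coding sequence and from the cell's own gene cannot be told apart in this table. Pou3f1 (Oct6), a related neural POU factor, was near 0 in the clones as well, with 15.4 FPKM in pBKSM, against 0 and 0.0780 in the clones.

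Both sides carried the neural stem cell label's markers. Nestin (Nes), the intermediate filament of neural progenitors, had 275 FPKM in pBKSM, against 145 and 132 in the clones and 0.103 in MEF, and the difference between pBKSM and the clones missed the threshold (log2 difference 0.98, adjusted p = 0.0647). Of 35 radial glia and neural stem cell markers tested, 8 were called higher (22.9%) and 3 lower (8.57%) in pBKSM. Over all genes tested, 3.74% were called higher and 2.08% lower, the shares to set beside this and later lists. The list's median log2 difference was 1.06, where the median of all genes tested was 0. Summed over the list, the level was 8704 FPKM in pBKSM, against 4569 and 3747 in the clones. Only 1 of 19 pluripotency genes reached the level needed for a test, and it was not called. Counts for this and later lists cover every list gene tested, whether or not it met the rule for chosen genes. Among called genes named below, Aldh1l1, Nkx6-2, Pcdhb18, Pcdhac2, Pcdhga5, Twist2, Rsad2, Psmb9, Lgr5 and Cdh19 did not reach 5 FPKM on either side. They therefore lie outside the chosen genes.

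The SOX group was split. Sox3, a SOXB1 factor like Sox2, had 58.8 FPKM in pBKSM, against 0.177 and 0.0779 in the clones; cNSC had 60.1. Sox8, a SOXE factor of glia, had 87.8 FPKM in pBKSM, against 10.7 and 11.8 in the clones. Sox1, the remaining SOXB1 factor, went the other way, with 2.31 FPKM in pBKSM, against 27.1 and 27.7 in the clones. Sox11, a SOXC factor of newborn neurons, had 17.6 FPKM in pBKSM, against 66.1 and 74.2 in the clones, a call lost with no filter, a pseudocount of 0.1, quantile normalization, median ratio scaling and without X-linked and Y-linked genes. With Sox2, 2 of 12 tested Sox genes were called higher (16.7%) and 3 lower (25%).

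Most other progenitor markers that were called were higher in pBKSM. Ntrk2 (TrkB), the receptor of brain-derived neurotrophic factor, had 35.4 FPKM in pBKSM, against 0.117 and 0 in the clones. Slc1a3 (GLAST), the glutamate transporter of radial glia, had 168 FPKM in pBKSM, against 32.3 and 29.5 in the clones. Mfge8, a secreted protein of radial glia and astrocytes, had 233 FPKM in pBKSM, against 28.6 and 32.1 in the clones. Id4, an inhibitor of basic helix-loop-helix factors, was lower, with 0.984 FPKM in pBKSM, against 18.8 and 20.1 in the clones.

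Called glial genes were nearly all higher in pBKSM. Of 20 astrocyte markers tested, 5 were called higher (25%, against 3.74% of all genes tested) and 0 lower. Their median log2 difference was 1.10. Of 17 oligodendrocyte lineage markers, 4 were called higher (23.5%) and 1 lower (5.88%, against 2.08%), with a median of 0.83. S100b, a calcium-binding protein of astrocytes and of the oligodendrocyte lineage, had 61.5 FPKM in pBKSM, against 0.0450 and 0 in the clones. No other library came close: pOKSM had 2.99, the DTA line 4.31 and cNSC 2.21. Aldoc, the brain form of aldolase, had 431 FPKM in pBKSM, against 106 and 102 in the clones. Agt (angiotensinogen), made by astrocytes in brain, had 10.02 FPKM in pBKSM and was listed at 0 in both clones. Aldh1l1, a folate enzyme of astrocytes that did not meet the rule, had 2.92 FPKM in pBKSM, against 0.0920 and 0.0507 in the clones.

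In the oligodendrocyte list, Olig2, a transcription factor of the lineage that cultured neural stem cells also carry, had 423 FPKM in pBKSM, against 65.1 and 59.5 in the clones (log2 difference 2.75, SE 0.10, adjusted p = 0.0367). cNSC had 247 FPKM. Cmtm5 had 54.3 FPKM in pBKSM, against 0.0935 and 0 in the clones. Nkx6-2, a homeobox factor of the ventral neural tube and of oligodendrocytes, had 1.82 FPKM in pBKSM and was listed at 0 in both clones. The exception was Pdgfra, the receptor of platelet-derived growth factor that marks oligodendrocyte precursors and also fibroblasts, with 1.06 FPKM in pBKSM, against 8.07 and 8.12 in the clones and 108 in MEF.

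Called receptor and channel genes of neurons and glia were nearly all higher in pBKSM, and most of those named were near 0 in the clones. Little clone spread at such genes makes a rise easier to call, and its part in this and other list shares was not tested. Of 23 neurotransmitter receptor genes tested, 7 were called higher (30.4%) and 0 lower (median log2 difference 0.48). Gria3, an AMPA-type glutamate receptor subunit, had 26.1 FPKM in pBKSM, against 0.120 and 0.103 in the clones. Grm5, a metabotropic glutamate receptor, had 26.4 FPKM in pBKSM, against 0.308 and 0.152 in the clones. Among GABA-A receptor subunits, Gabra2 had 13.5 FPKM in pBKSM, against 0 and 0 in the clones, and Gabrg1 had 14.3 FPKM in pBKSM, against 0.0146 and 0 in the clones. Of 21 potassium and sodium channel genes, 7 were called higher (33.3%) and 1 lower (4.76%). The voltage-gated potassium channel gene Kcnc4 had 5.63 FPKM in pBKSM and 0 in both clones. The exception was Kcnj10 (Kir4.1), the inward rectifier of astrocytes, with 0.591 FPKM in pBKSM, against 5.45 and 5.24 in the clones; cNSC had 68.6 and the DTA line 53.9, far above all 3. The Kcnj10 call was lost with no filter, a pseudocount of 0.1, quantile normalization and without X-linked and Y-linked genes.

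The matrix and the adhesion molecules around the cells also differed. Of 26 neural matrix and adhesion genes tested, 6 were called higher (23.1%) and 1 lower (3.85%), with a median log2 difference of 0.82. Spon1 (F-spondin), a secreted adhesion protein of the floor plate, lies at chr7:113765998-114043375 (mm10) and had 83.5 FPKM in pBKSM, against 0.134 and 0 in the clones. Cspg5 (neuroglycan C) had 79.8 FPKM in pBKSM, against 3.69 and 4.16 in the clones. Chl1, a neural cell adhesion molecule of the L1 family, had 29.5 FPKM in pBKSM, against 0.0618 and 0.0681 in the clones. Ptprz1, a receptor phosphatase of radial glia, had 165 FPKM in pBKSM, against 50.8 and 56.5 in the clones, and its call was lost in the same 5 settings as that of Sox11. Cdh13, a cadherin anchored to the membrane by lipid, had 14.6 FPKM in pBKSM, against 0.0633 and 0 in the clones. Of 39 clustered protocadherin genes tested, 7 were called higher (17.95%) and 0 lower. Pcdhgb7 had 13.9 FPKM in pBKSM, against 0.375 and 0.192 in the clones, but 49.5% of the 31-base words of its transcripts occur in other genes, so reads may have been divided among copies. The share was 57.9% for Pcdhgb6, 48.4% for Pcdhac2 and 46.3% for Pcdhga5, all called higher, and 8.56% for Pcdhb18, also called higher. The count for the protocadherin list is uncertain for the same reason.

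Collagen and mesenchymal genes were called in both directions. Serpinh1 (HSP47), the chaperone of collagen, had 22.6 FPKM in pBKSM, against 761 and 638 in the clones (log2 difference -4.89, SE 0.17, adjusted p = 0.0367). Fkbp10, another collagen chaperone, had 0.212 FPKM in pBKSM, against 74.7 and 49.4 in the clones. Col5a2, a fibrillar collagen chain, was listed at 0 in pBKSM, against 33.9 and 33.9 FPKM in the clones and 113 in MEF. Lama4, a laminin chain, had 0.0732 FPKM in pBKSM, against 22.5 and 27.6 in the clones. Of 34 fibroblast and mesenchyme markers tested, 2 were called higher (5.88%) and 3 lower (8.82%), with a median of -0.11. Twist2, a mesenchymal transcription factor, had 0.756 FPKM in pBKSM and 0 in both clones, and was called higher. The Twist2 call was lost with no filter, with centring within chromosomes and without X-linked and Y-linked genes. Col9a3 and Col28a1, collagen chains outside the list, had 35.1 and 26.7 FPKM in pBKSM, against 0.526 and 0.386 (Col9a3) and 0.132 and 0.127 (Col28a1) in the clones. Fbln2, an extracellular matrix protein of the list, was higher, with 249 FPKM in pBKSM, against 26.9 and 21.8 in the clones. The list's summed level did not part the sides, at 672 FPKM in pBKSM, against 665 and 530 in the clones.

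Among single large falls, Tagln2 (transgelin 2), an actin-binding protein, had 9.40 FPKM in pBKSM, against 410 and 434 in the clones. Anxa6 and Anxa5, annexins that bind membranes in the presence of calcium, had 25.6 and 7.55 FPKM in pBKSM, against 420 and 354 (Anxa6) and 178 and 151 (Anxa5) in the clones. Crip1, a small LIM protein, was listed at 0 in pBKSM, against 64.1 and 73.2 FPKM in the clones. In the S100 and annexin list of 21 tested genes, 2 were called higher (9.52%) and 3 lower (14.3%). The 3 annexins Anxa5, Anxa6 and Anxa7 were lower and S100b and S100a11 higher. S100a11 shared 48.9% of its 31-base words with other genes, and the Anxa7 call was lost with no filter, with a pseudocount of 0.1 and without X-linked and Y-linked genes.

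Of 39 interferon-stimulated genes tested, 1 was called higher (2.56%, against 3.74% of all genes tested) and 3 lower (7.69%, against 2.08%), and Ifitm3 and Bst2 were among the 20 largest called falls. The list had a median log2 difference of -0.30. Ifitm3, a membrane protein that hinders virus entry, had 3.45 FPKM in pBKSM, against 382 and 335 in the clones (log2 difference -6.33, SE 0.13, adjusted p = 0.0367); 20.5% of its 31-base words occur in other genes. Every other library was at 242 FPKM (cNSC) or more, so pBKSM stood alone. Bst2 (tetherin), which holds budding virus at the cell surface, had 0.436 FPKM in pBKSM, against 117 and 104 in the clones, 51.5 in pOKSM and 60.0 in MEF, but 1.18 in the DTA line. Rsad2 (viperin) was the remaining one, with 0.309 FPKM in pBKSM, against 1.58 and 1.57 in the clones, a call lost with no filter, a pseudocount of 0.1 and quantile normalization. Psmb9, an immunoproteasome subunit, was the gene called higher, with 1.77 FPKM in pBKSM, against 0.106 and 0.116 in the clones. Cxcl10, a chemokine that interferon induces and that stood in the chemokine list, had 0.0929 FPKM in pBKSM, against 45.3 and 57.1 in the clones. Ccl2, another chemokine, had 7.35 FPKM in pBKSM, against 86.6 and 73.0 in the clones.

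The promoters of Ifitm3, Bst2 and Cxcl10 hold the core of an interferon response element, and they are shown for that reason beside the falls just given. The sequences are RefSeq GRCm38.p6 (the mm10 build), 250 bases before to 50 after the gene's start, read 5′ to 3′ on the gene's strand, all 3 on the minus strand. Capitals mark GAAA, any 2 bases, then GAAA, searched on both strands; the 2 matches in Bst2 overlap. The windows are chr7:141010695-141010994 for Ifitm3, chr8:71537423-71537722 for Bst2 and chr5:92348840-92349139 for Cxcl10.
Ifitm3: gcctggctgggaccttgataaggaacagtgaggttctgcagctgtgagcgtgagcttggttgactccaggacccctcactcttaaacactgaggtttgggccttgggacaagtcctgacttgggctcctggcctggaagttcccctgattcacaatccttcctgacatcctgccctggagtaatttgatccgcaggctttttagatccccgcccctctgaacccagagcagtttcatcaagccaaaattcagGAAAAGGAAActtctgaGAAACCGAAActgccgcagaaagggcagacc
Bst2: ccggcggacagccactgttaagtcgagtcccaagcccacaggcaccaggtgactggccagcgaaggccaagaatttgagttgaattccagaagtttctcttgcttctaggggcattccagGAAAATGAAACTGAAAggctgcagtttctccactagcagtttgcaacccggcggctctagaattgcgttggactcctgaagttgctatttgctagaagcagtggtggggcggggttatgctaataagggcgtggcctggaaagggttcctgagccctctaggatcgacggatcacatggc
Cxcl10: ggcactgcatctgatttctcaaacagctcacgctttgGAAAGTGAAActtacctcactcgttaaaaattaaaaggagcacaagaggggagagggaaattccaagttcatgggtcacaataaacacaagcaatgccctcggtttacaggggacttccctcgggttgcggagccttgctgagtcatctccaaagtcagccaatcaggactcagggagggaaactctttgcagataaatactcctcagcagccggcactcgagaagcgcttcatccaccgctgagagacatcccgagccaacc
Such a match stood in 6 of 147 promoters of genes called lower in pBKSM (4.08%), in 3 of 193 promoters of genes called higher (1.55%) and in 2.85% of 9862 promoters of genes tested.

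Motifs of the factors were searched in the same windows. The POU octamer ATGCAAAT stood in 1.04% of the promoters of genes called higher, 2.72% of those called lower and 1.36% of all promoters. The MYC-type E-box CACGTG stood in 5.70% of the higher, 9.52% of the lower and 10.3% of all promoters, and the SOX motif ACAATG in 8.29% of the higher, 5.44% of the lower and 6.88% of all. Both strands were searched, and matches to different motifs may overlap. Sox1, lower in pBKSM, and Olig2, higher, are shown as the neural factor genes with an octamer and a SOX match in this window. Sox1 lies on the plus strand of chr8:12395269-12395568 with the octamer in capitals. Olig2 lies on the plus strand of chr16:91225300-91225599, and its capitals are the SOX motif read on the other strand.
Sox1: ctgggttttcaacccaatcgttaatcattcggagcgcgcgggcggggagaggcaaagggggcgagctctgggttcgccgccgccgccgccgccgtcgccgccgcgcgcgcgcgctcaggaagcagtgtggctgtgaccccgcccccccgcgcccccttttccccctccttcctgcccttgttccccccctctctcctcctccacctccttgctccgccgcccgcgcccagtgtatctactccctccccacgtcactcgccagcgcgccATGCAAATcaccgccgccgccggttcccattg
Olig2: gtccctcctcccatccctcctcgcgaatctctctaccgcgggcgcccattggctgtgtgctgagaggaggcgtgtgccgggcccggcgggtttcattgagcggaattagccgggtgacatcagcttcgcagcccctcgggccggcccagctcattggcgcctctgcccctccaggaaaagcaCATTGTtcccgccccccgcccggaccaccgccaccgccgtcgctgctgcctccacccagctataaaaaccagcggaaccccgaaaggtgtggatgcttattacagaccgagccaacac
A match describes these letters and says nothing of binding.

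Neuronal genes divided. Of 24 neuronal markers tested, 3 were called higher (12.5%) and 4 lower (16.7%) in pBKSM, with a median log2 difference of -0.82. Rbfox3 (NeuN), a splicing factor of mature neurons, had 1.62 FPKM in pBKSM, against 29.69 and 25.97 in the clones; cNSC had 0.0693. Syt1, the calcium sensor of synaptic vesicles, had 9.55 FPKM in pBKSM, against 43.0 and 46.4 in the clones; cNSC had 0.321. The Syt1 call was lost with either smaller pseudocount, no filter, quantile normalization, median ratio scaling and without X-linked and Y-linked genes. Uchl1, a neuronal ubiquitin hydrolase, had 52.95 FPKM in pBKSM, against 221 and 205 in the clones. Syp (synaptophysin), a vesicle protein, was higher, with 6.11 FPKM in pBKSM, against 1.62 and 1.53 in the clones. Its call was lost with a pseudocount of 0.1 or 0.5, with no filter and with centring within chromosomes, where its log2 difference was 0.58, against 1.46 without centring. The summed level of the list was 401 FPKM in pBKSM, against 509 and 546 in the clones.

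Positional genes marked the 2 sides differently. Of 30 Hox genes tested, 0 were called higher and 4 lower (13.3%), and all 4 were listed at 0 in pBKSM. Hoxb3, a homeobox gene of the hindbrain and trunk, had 17.1 and 22.7 FPKM in the clones and 19.18 in pOKSM. Hoxd8 had 12.02 and 15.98 FPKM in the clones. Hoxb2 and Hoxd9 had 10.3 and 10.8 FPKM in clone 1 and 11.9 and 10.4 in clone 3. cNSC, from cortex, was also listed at 0 for the 4. The DTA line had 13.78 FPKM of Hoxb2, 13.76 of Hoxd8 and 5.73 of Hoxb3, with Hoxd9 at 0. MEF had 3.52 FPKM of Hoxb2 and 0.642 of Hoxb3, with Hoxd8 and Hoxd9 at 0. The summed Hox level was 35.3 FPKM in pBKSM, against 122 and 164 in the clones, so pBKSM kept some Hox transcripts, and the median of the list, -0.10, was near 0.

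Of 16 forebrain patterning genes tested, 2 were called higher (12.5%) and 0 lower. Their median log2 difference was -0.33, with 4 at least 2-fold higher and 5 at least 2-fold lower. Of 15 midbrain and hindbrain patterning genes tested, 2 were called higher (13.3%) and 1 lower (6.67%). Their median was 0.22, with 6 at least 2-fold higher and 1 lower. Otx2, a homeobox factor of forebrain and midbrain, had 8.43 FPKM in pBKSM and 0 in both clones. Gbx2, a homeobox factor at the border of midbrain and hindbrain, had 5.86 FPKM in pBKSM, against 0.926 and 1.02 in the clones. Mab21l2, a gene of eye and midbrain development at chr3:86546050-86548283, was listed at 0 in pBKSM, against 87.7 and 85.2 FPKM in the clones and 59.3 in pOKSM. Gli2, a transcription factor of Hedgehog signalling, had 1.26 FPKM in pBKSM, against 12.7 and 14.3 in the clones.

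Ligands and receptors of growth and patterning pathways were called in both directions, where 5.82% of all genes tested were called. In the IGF list of 16 tested genes, 2 were called higher and 2 lower (25% in all). Igfbp2, a secreted IGF-binding protein of neuroepithelium, had 1682 FPKM in pBKSM, against 483 and 469 in the clones. Igfbp4 had 573 FPKM in pBKSM, against 120 and 107 in the clones. Igf2bp1, an RNA-binding protein of embryonic cells, had 0.147 FPKM in pBKSM, against 11.7 and 12.5 in the clones. Of 29 FGF and EGF receptor genes with their ligands and feedback inhibitors, 4 were called higher and 1 lower (17.2%). Fgf1, a ligand of FGF receptors, had 19.4 FPKM in pBKSM, against 0.251 and 0.0987 in the clones, and Areg (amphiregulin), a ligand of the EGF receptor, had 9.82 FPKM in pBKSM, against 0.131 and 0.215 in the clones. Spry2, a feedback inhibitor of receptor tyrosine kinases, had 140 FPKM in pBKSM, against 57.9 and 60.3 in the clones; its call was lost with no filter and with quantile normalization.

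In the Notch list, 3 of 21 tested genes were called higher and 1 lower (19.05%). Dner, a neural Notch ligand, had 33.7 FPKM in pBKSM, against 0.949 and 0.597 in the clones. Hey1, a target of Notch, had 21.2 FPKM in pBKSM, against 112 and 122 in the clones. Of 35 Wnt genes, 2 were called higher and 0 lower (5.71%): the receptor Fzd10 had 9.16 FPKM in pBKSM and 0 in both clones, and Lgr5, the R-spondin receptor, had 4.28 FPKM in pBKSM, against 0.266 and 0.341 in the clones. Of 36 TGF-beta and BMP genes, 2 were called higher and 1 lower (8.33%), with the activin subunit gene Inhbb at 10.3 FPKM in pBKSM, against 0.131 and 0.108 in the clones. The medians of the Notch, Wnt and TGF-beta lists were 0.17, 0.17 and 0.07.

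Metabolic and growth lists ran from no call to more than the share of all genes tested. None of 35 proliferation genes was called; Ccnd1 (cyclin D1), the largest difference in the list, had 422 FPKM in pBKSM, against 118 and 95.9 in the clones (adjusted p = 0.0595). None of 31 cholesterol synthesis genes, 28 integrated stress genes, 24 polycomb and trithorax genes or 14 DNA methylation genes was called, and a miss at this precision does not show equal levels. Cdkn1a (p21), the cell cycle inhibitor that p53 induces, had 274 FPKM in pBKSM, against 33.0 and 9.55 in the clones, and was not called (log2 difference 3.86, SE 0.97, adjusted p = 0.130); the clones differed from each other by more than 3-fold. Of 79 ribosomal protein genes, Rpl22l1 alone was called (1.27%). It had 611 FPKM in pBKSM, against 182 and 186 in the clones, and the call was lost with quantile normalization. In the respiratory chain list 3 of 38 tested genes were called higher (7.89%, against 3.74% of all genes tested). Uqcrb, a subunit of complex III, had 431 FPKM in pBKSM, against 42.2 and 41.9 in the clones, with 30.5% of its 31-base words in other genes. Of 25 glycolysis genes 2 were called higher (8%) and 1 lower (4%): Pgk1 (phosphoglycerate kinase), on the X chromosome, had 332 FPKM in pBKSM, against 93.4 and 89.4 in the clones, with 68.3% of its 31-base words in other genes, and Pfkp (phosphofructokinase, platelet form) had 0.312 FPKM in pBKSM, against 13.8 and 13.5 in the clones.

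Markers of other cell types were set beside these. Of 16 microglia and macrophage markers 10 were listed at 0 in pBKSM and both clones, with a summed level of 2.79 FPKM in pBKSM, against 10.9 and 10.2 in the clones; none of the 5 tested was called. Endothelial and pericyte markers summed to 20.1 FPKM in pBKSM, against 18.34 and 20.04 in the clones, and 1 of 5 tested was called higher (20%). Neural crest and Schwann markers summed to 69.7 FPKM in pBKSM, against 47.04 and 45.04 in the clones. Of 10 tested, 2 were called higher (20%) and 0 lower, with Cdh19 at 4.98 FPKM in pBKSM, against 0.0232 and 0.0256 in the clones. Ependymal and choroid plexus markers summed to 22.97 FPKM in pBKSM, against 2.87 and 1.63 in the clones. Of 7 tested, 2 were called higher (28.6%). Foxj1, a regulator of motile cilia, had 8.37 FPKM in pBKSM, against 0.807 and 0.613 in the clones. The part of other cell types in the differences was not tested.

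**Figure D2:**
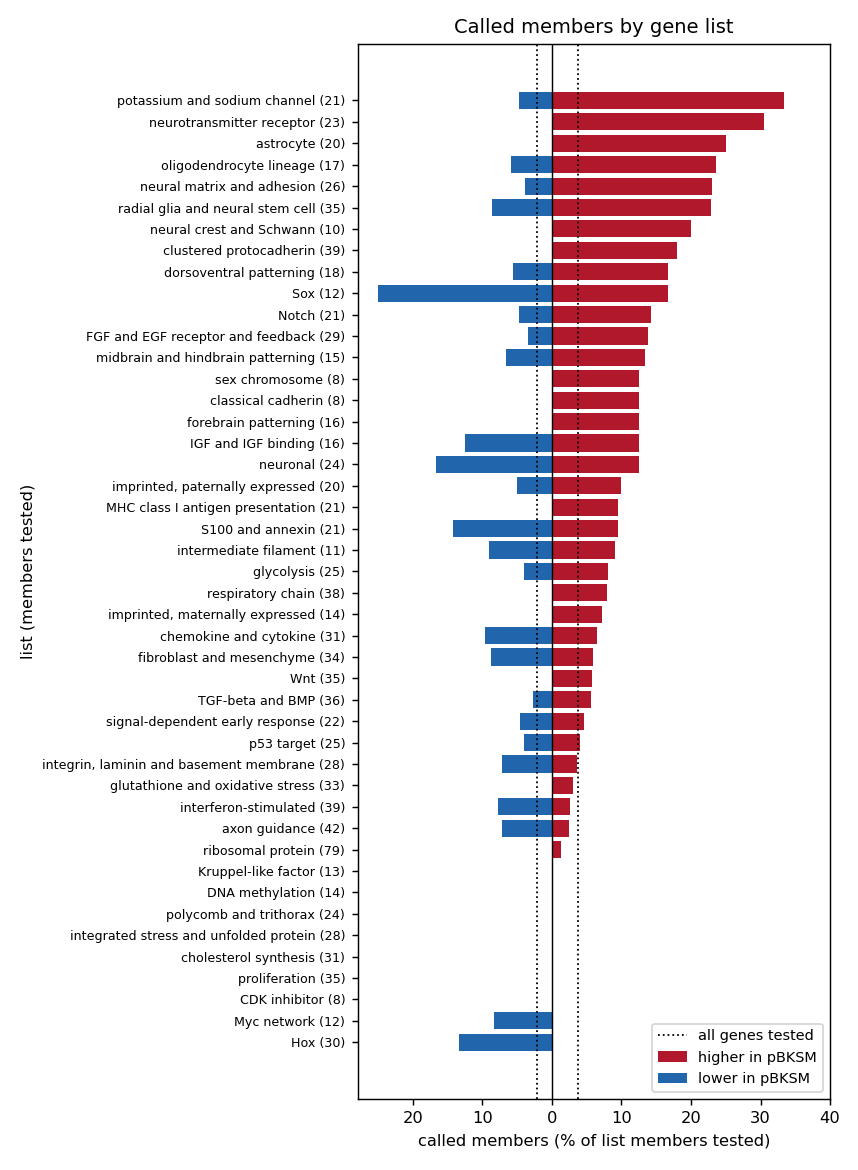
Each bar is the share of a list's tested genes called higher (red, to the right) or lower (blue, to the left) in pBKSM, in percent, for lists with at least 8 tested genes, with the number tested in brackets. Dotted lines mark the shares over all genes tested (3.74% higher, 2.08% lower); channel, receptor and glial lists reach furthest to the right, and Sox, neuronal and S100 and annexin lists furthest to the left.

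The largest rise among genes with a name of their own was Spon1, and 1500015O10Rik, named after its values were seen, was larger, with 169 FPKM in pBKSM, against 0.469 and 0.103 in the clones. Atp6v0e2, a subunit of the proton pump of vesicles, had 73.4 FPKM in pBKSM, against 0.0807 and 0.0444 in the clones; the DTA line had 119 and cNSC 104. Cryab, a small heat shock protein, had 46.7 FPKM in pBKSM, against 0 and 0.105 in the clones. A2m, a secreted protease inhibitor, had 35.5 FPKM in pBKSM, against 0 and 0.0164 in the clones. Apln (apelin), a peptide hormone, had 72.5 FPKM in pBKSM, against 0.743 and 1.17 in the clones. The most abundant called gene was Serpine2, a secreted inhibitor of thrombin and plasminogen activators, with 2111 FPKM in pBKSM, against 127 and 137 in the clones (log2 difference 3.99, SE 0.10, adjusted p = 0.0367).

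Tex13, at chrX:140808307-140813433 and best known from testis, had 32.3 FPKM in pBKSM and was listed at 0 in the other 6 libraries, so it set pBKSM apart from the series and not from the clones alone. Among the falls, Moxd1, a relative of dopamine beta-hydroxylase, had 0.148 FPKM in pBKSM, against 89.3 and 98.9 in the clones. Lck, a kinase best known from T cells, had 0.136 FPKM in pBKSM, against 69.4 and 68.3 in the clones. Lxn, an inhibitor of carboxypeptidases, had 0.0937 FPKM in pBKSM, against 75.6 and 76.8 in the clones. Rgs16, which shortens G protein signals, had 1.31 FPKM in pBKSM, against 125 and 104 in the clones. Lck and Moxd1 were under 0.5 FPKM in cNSC, MEF and the DTA line as well, so there the clones and pOKSM (49.0 and 89.1 FPKM) were the high libraries.

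A pair of near-identical genes, named after their values were seen, changed places. Eif3j1, a subunit of translation initiation factor 3, had 0.121 FPKM in pBKSM, against 27.0 and 26.3 in the clones, and was called lower. Its copy Eif3j2 had 22.6 FPKM in pBKSM, against 1.66 and 0.654 in the clones (adjusted p = 0.0686). Eif3j1 shared 41.3% and Eif3j2 94.9% of its 31-base words with other genes, so the choice between them may rest on few reads. Gng10 and Plp2, lower in pBKSM, shared 79.3% and 66.2% and are uncertain for the same reason, as are the genes given with such a share elsewhere.

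**Figure D3:**
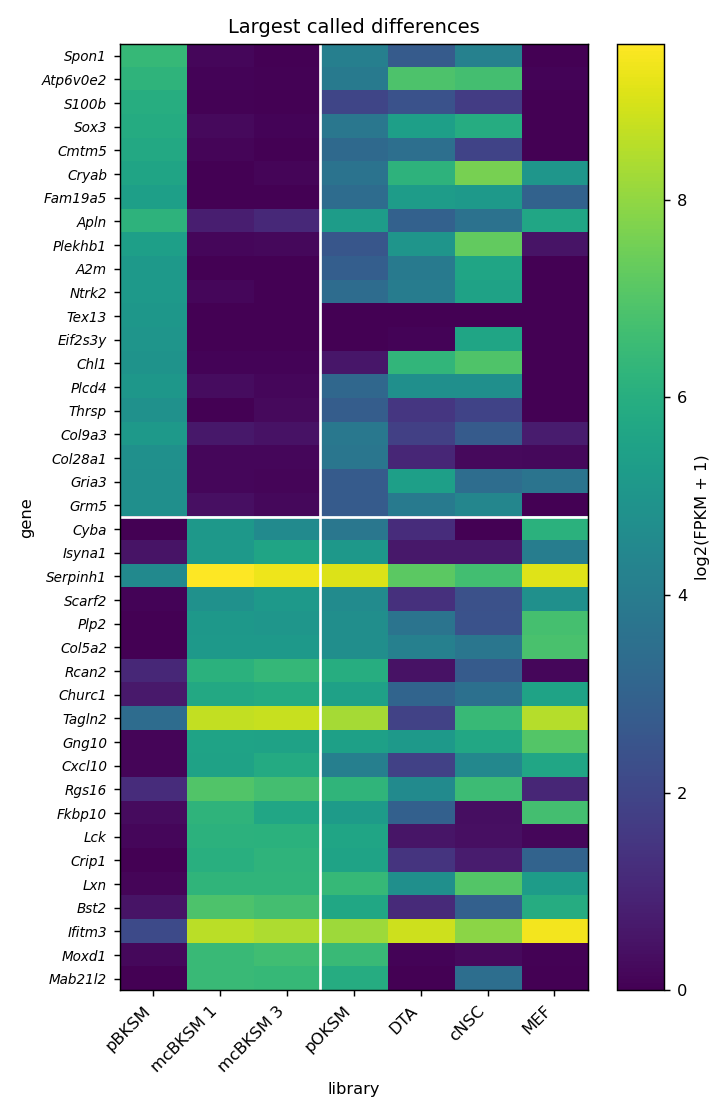
Colour gives log2(FPKM + 1) in each of the 7 libraries for the 20 largest rises (upper block) and the 20 largest falls (lower block) among called genes, with pBKSM at the left. pOKSM is dark or mid-range where the clones are dark and bright where they are bright, while the DTA line and cNSC vary from gene to gene.

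The differences were spread unevenly over the chromosomes. On the X chromosome, 37 of 444 genes tested were chosen genes called higher in pBKSM (8.33%), where the autosomes had 0.957% (chromosome 10) to 3.74% (chromosome 1). Over 212 X-linked genes with at least 5 FPKM, the median log2 difference was 0.78 and 92.0% were higher in pBKSM; over all 7842 such genes of the genome the median was 0.02 and 51.5% were higher. The shift ran along the whole chromosome, with medians of 0.85, 0.99, 0.74 and 0.71 in 4 equal stretches by gene order. Set against cNSC, X-linked genes had a median of 0.19 in pBKSM, against -0.70 in clone 1 and -0.63 in clone 3; pOKSM had -0.40 and the DTA line 0.00. The sex of the cNSC embryos is in doubt, as said, and the DTA line was near 0 for the Y-linked Ddx3y (0.039 FPKM). These values therefore place the lines only relative to each other, across libraries of unlike Y-linked levels.

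Chromosome 6 followed with a median of 0.43, then chromosome 1 with 0.29. On chromosome 16 the median of 0.19 came from the distal 2 such stretches, at 0.57 and 0.60, where the proximal 2 were at -0.07 and -0.17. Chromosome 11 had the lowest median, -0.16. The clones themselves differed by chromosome: clone 1 minus clone 3 had medians of 0.34 on chromosome 15, -0.31 on chromosome 9 and 0.18 on chromosome 11. These values move with the differences of single genes; copy number was not measured, and its part was not tested. After centring within chromosomes, 442 of the 448 chosen genes that were called were still called, and all 448 kept their direction. Centring also raised the genes called from 488 and 271 to 1617 higher and 1599 lower. Among the 448, every difference was at least 1.06 in size, above the largest chromosome median of 0.78. The kept calls and directions therefore tell nothing of these shifts. Of the genes given above as higher in pBKSM, Sox3, Pou3f4, Apln, Gria3, Syp, Pgk1 and Tex13 are X-linked.

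The sex chromosomes held a further difference. Eif2s3y, a Y-linked subunit of a translation initiation factor at chrY:1010562-1049134, had 31.2 FPKM in pBKSM, against 0 and 0 in the clones; cNSC had 48.2 and pOKSM 0. Of the other Y-linked genes listed, Ddx3y, Kdm5d and Uty were present on both sides and not called, and Usp9y and Zfy1 were listed at 0 in all 3 libraries. Ddx3y, an RNA helicase, had 11.4 FPKM in pBKSM, against 28.3 and 16.2 in the clones. Kdm5d, a histone demethylase, had 8.32 FPKM in pBKSM, against 8.73 and 5.54 in the clones. In the DTA line Ddx3y was at 0.039 FPKM and Eif2s3y at 0.073, with Kdm5d and Uty listed at 0. MEF was listed at 0 for these Y-linked genes, and pOKSM had 12.5 FPKM of Ddx3y. Xist, the RNA of the inactive X, was at most 0.0125 FPKM in all 3. The X-linked partner gene Eif2s3x had 20.4 FPKM in pBKSM, against 13.4 and 13.2 in the clones, and was not called (log2 difference 0.59, adjusted p = 0.0858).

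**Figure D4:**
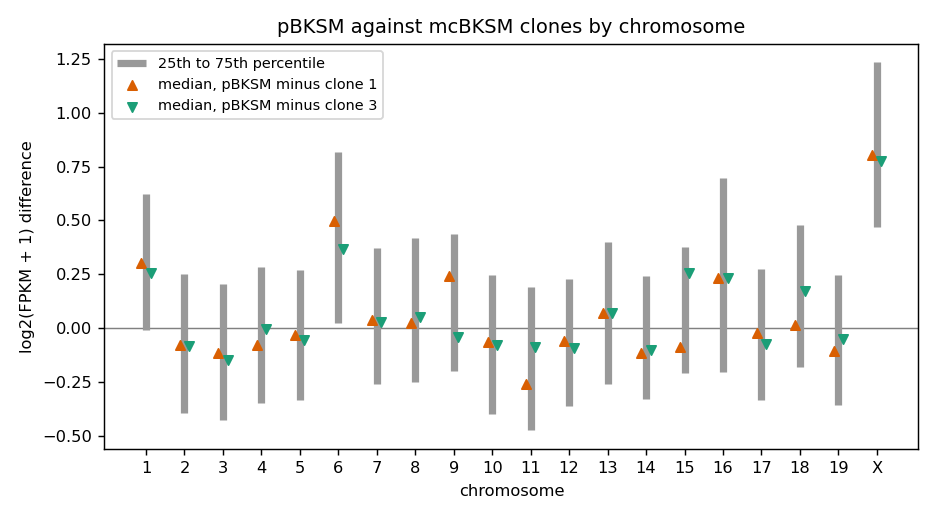
For each chromosome (x axis), triangles give the median log2(FPKM + 1) difference of pBKSM minus clone 1 (upward) and minus clone 3 (downward) over genes with at least 5 FPKM, and grey bars the 25th to 75th percentile of the difference to the clones' mean. The X chromosome lies highest (median 0.78), followed by chromosomes 6 (0.43) and 1 (0.29), and the 2 clones part on chromosomes 15 and 9.

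The 4 libraries outside the comparison were placed between pBKSM and the clones at the called genes. This is a description: those libraries did not choose the genes, but they entered the fit as groups of their own. pOKSM lay nearer the clones at most of them. On the log2(FPKM + 1) scale it was nearer pBKSM at 25.9% of the 263 genes called higher in pBKSM and at 1.62% of the 185 called lower, where over all chosen genes the shares were 21.3% and 20.6%. On the linear FPKM scale, with the clones' mean at 0 and pBKSM at 1, pOKSM had a median position of 0.21 at the higher genes (25th to 75th percentile 0.14 to 0.27) and 0.29 at the lower genes (0.18 to 0.37). It fell between the clones' mean and the midpoint at 252 of the 263 and at 160 of the 185. Spon1 shows the pattern, with 83.5 FPKM in pBKSM, 16.7 in pOKSM, and 0.134 and 0 in the clones; Serpine2 had 2111 FPKM in pBKSM, 466 in pOKSM, and 127 and 137 in the clones. Chl1, Tex13 and Eif2s3y did not show it, with 0.492, 0 and 0 FPKM in pOKSM.

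The DTA line lay nearer pBKSM at most called genes, and for cNSC this depended on the scale. On the log2(FPKM + 1) scale the DTA line was nearer pBKSM at 73.0% of the higher and 76.8% of the lower genes, against 60.2% and 68.7% of all chosen genes. On the linear scale these were 58.6% and 90.3%, with median positions of 0.59 and 0.94. No linear shares over all chosen genes are available here. The linear shares of the DTA line and cNSC therefore stand without that baseline. On the log2 scale cNSC was nearer pBKSM at 66.9% of the higher and 64.9% of the lower genes, against 55.7% and 63.5% of all chosen genes, so its share at the lower genes was near that of all chosen genes. On the linear scale cNSC was nearer pBKSM at 48.7% of the higher and 76.8% of the lower genes, with median positions of 0.48 and 0.94. On the log2 scale MEF was nearer pBKSM at 20.5% of the higher and 47.6% of the lower genes, against 41.6% and 50.6%, and its median position was 0 at the higher genes. The interquartile ranges were wide outside pOKSM, from 0.26 to 1.01 in the DTA line at the higher genes.

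**Figure D5:**
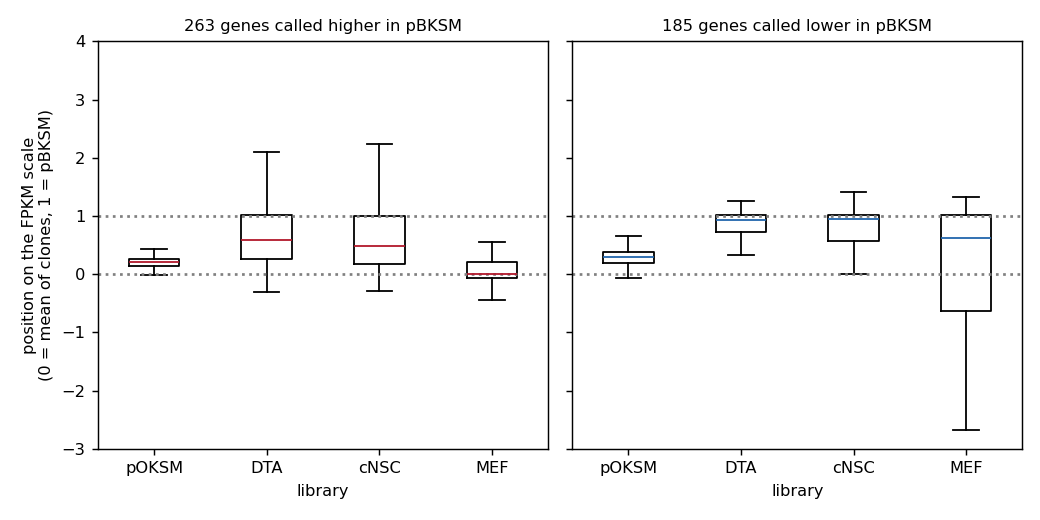
Boxes give the position of each library (x axis) between the clones' mean (0) and pBKSM (1) on the linear FPKM scale at the 263 genes called higher (left) and the 185 called lower (right) in pBKSM; lines in the boxes are medians, boxes the 25th to 75th percentile, whiskers reach at most 1.5 box lengths, and points beyond are not drawn. pOKSM forms narrow boxes near 0.21 and 0.29, while the DTA line, cNSC and MEF spread widely.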

How the data were processed

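The authors deposited FPKM values for 24354 gene symbols in 7 libraries, each a pool of RNA from 2 to 3 biological replicates per the labels. Per the submitters' processing notes, the tools were STAR 2.5.2b, Cufflinks 2.2.1 and Cuffnorm, R was at 3.3.2 and the build was mm10. Which step each tool made is not given in the sources used here. Scaling each library hides any difference in RNA content per cell.

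Values were used as log2(FPKM + 1), which understates changes of low genes. The 13042 genes that reached 1 FPKM in any library entered limma-trend (limma 3.58.1 in R 4.3.3) over 6 label groups, with Benjamini-Hochberg adjustment over all genes tested and a call at an adjusted p under 0.05. All adjusted p-values come from this fit, which had 1 residual degree of freedom from the clones and 1.27 prior degrees of freedom. The clones are separate lines, and the labels do not say whether they came from separate cultures, so p-values measure only their spread. The fit was run on a simulated table with known changes, whose spread was drawn from the fit itself. That run cannot check the assumption that pBKSM varies as the clones do. Depth was estimated from the step between low values, is approximate, and its floors cover counting error only.

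Members and the 52 gene lists were chosen with earlier results of these data known. Named genes were the factor, Nes and sex chromosome genes; up to 6 called members of a list, or 2 where none was called; the 20 largest called rises and falls; the 10 most abundant called genes each way; and the genes at the threshold. Outside the lists, predicted genes (Gm, Rik), microRNA and snoRNA genes and ribosomal protein genes were skipped. Coordinates and promoters are from RefSeq GRCm38.p6, where 23149 symbols matched and 1086 matched a synonym. Shared sequence was counted as 31-base words of GENCODE M21 transcripts found in another gene. Tables and plots were made with Python 3.11.15, pandas 2.3.3 and matplotlib 3.10.9. Alternatives changed the pseudocount, filter, scaling, libraries in the fit, trend and, added after the data were seen, chromosome centring and leaving out X-linked and Y-linked genes.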

Additional observations from a re-analysis of the deposited data

How the results depend on the processing

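Genes called higher and lower in pBKSM (488 and 271) moved with the libraries and filter: 872 and 582 with a filter of 5 FPKM, 1439 and 1097 with pBKSM and the clones alone, 1074 and 775 with the iNSC libraries alone, 1617 and 1599 with each library centred within each chromosome (added after the data were seen) and 0 and 0 without the trend, and 104 called lower with no filter. The 263 and 185 called members moved to 741 and 507, 1131 and 803, 778 and 542, 1285 and 1132, and 0 and 0 under the same 5 settings, to 97 and 61 with no filter, and 146 were called higher with a pseudocount of 0.1. Of the 448 called members, 448 were called with the 5 FPKM filter and in both smaller fits, 442 with centring, 430 with a pseudocount of 0.5, 417 with median ratio scaling, 366 with quantile normalization, 298 with a pseudocount of 0.1 and 158 with no filter. Without X-linked and Y-linked genes 383 genes were called higher and 216 lower. The cause of these shifts was not tested.

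With a minimum of 1 FPKM for the higher side, 1054 members were at least 2-fold lower, against 690. Leaving out a clone left no residual degree of freedom and gave values only: 4781 to 4870 members were higher and 4606 to 4645 lower, with 988 to 1006 and 705 to 734 at least 2-fold apart. The share of genes called higher at which a library lay nearer pBKSM moved to 74.1% in cNSC and 41.4% in pOKSM with a pseudocount of 0.1. Over all members at least 2-fold apart it was 30.1% in MEF and 16.8% in pOKSM, and 5.94% in pOKSM for the lower genes. Ddx3x, an X-linked RNA helicase, had a log2 difference of 0.22 and of -0.66 after centring, and was not called in the first. Centring also turned the sign of 5 of 52 list medians, and quantile normalization that of 2. No paired analysis was possible because the pBKSM library carries no replicate number, so the groups share none. In pBKSM 0.14 FPKM is about 3 fragments on a 2 kb transcript, and differences between values near it were not detectable at this depth.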
